A study of Mus musculus with 8 samples.

Results

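The numbered Zfp genes, the mouse zinc finger protein genes named by Zfp and a number, were examined in B16F1 melanoma tumours. Members were all such genes, except Zfp36, whose brightest probe set naming a single gene had a mean signal of 150 or more over the 8 arrays. This kept 159 of the 304 numbered Zfp genes on the array, which carries 18193 named genes in all, and left 145 below the level. The family was chosen because several of its genes read low in tumours of receptor-deficient hosts, and the members were then selected on their measured mean signal. The host difference is therefore given as a description with no test.

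B16F1 is a mouse melanoma cell line, and its cells were injected under the skin of the right hind limb of mice 8 to 12 weeks old. The TNFR KO hosts were TNFR1,2 -/- mice, from B6;129S-Tnfrsf1a[tm1Imx] Tnfrsf1b[tm1Imx]/J breeding pairs, and lack both receptors for tumour necrosis factor in every cell of the host, while the injected cells came from the same line in both hosts and their own receptor genes were not targeted. The WT hosts were C57BL/6-NCr mice, and the sample labels give C57BL/6 as the strain of both hosts. There were 4 groups. TNFR KO irradiated and WT irradiated tumours had 20 Gy of X-rays, with excision 5 h later, and TNFR KO untreated and WT untreated tumours had none. Tumours measured 268 to 478 cubic mm, 5 to 7 mice of each host were injected, and whole-tumour RNA of a group was pooled and hybridised to 2 Affymetrix whole-genome mouse arrays. The 2 arrays of a group are thus technical duplicates of 1 pool, and their spread holds no variation between mice. With so few arrays, their number limits precision throughout. In RNA of whole tumours, fewer cells of a type and less RNA per cell cannot be told apart.

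Most numbered Zfp genes encode proteins with arrays of C2H2 zinc fingers, which bind DNA. Many also carry a KRAB domain, which recruits the corepressor Trim28 and, through it, the histone methyltransferase Setdb1, and such proteins are known for silencing retroelements and for keeping imprinted genes marked. Other numbered Zfp genes are unrelated in function, among them RNA-binding proteins and ubiquitin ligases that share only the zinc finger.

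Several measurements of the whole series bear on these values. Spike-ins with a poly-A tail (dap, lys, phe and thr), added before labelling, averaged 14.4, 18.1, 13.2 and 16.7 on the 4 TNFR KO arrays and 17814, 3439, 4765 and 6229 on the 4 WT arrays, so host and target preparation cannot be told apart. The hybridisation control bioB averaged 587 on TNFR KO and 627 on WT arrays, and 18S ribosomal RNA averaged 736 on TNFR KO and 316 on WT arrays. Over the members, log2 signals correlated at 0.964 to 0.983 between duplicates and at 0.930 to 0.957 between pools of one host. Between hosts they correlated at 0.770 to 0.831. Over all probe sets except controls, the same ranges were 0.975 to 0.981, 0.9705 to 0.9724 and 0.955 to 0.964. Those probe sets include dim ones, while members were kept by their signal, so the ranges of members and of all probe sets are not like for like. None of the 15 melanocyte markers tested was 2-fold lower or higher in TNFR KO tumours over both treatments (median log2 difference 0.046), and their summed signal was 236749 to 252572 on TNFR KO arrays and 226800 to 268327 on WT arrays. They ranged from Mitf at -0.89 to Kit at 0.67, with 5 of the 15 below 0. Mitf differed by -1.03 in untreated and -0.74 in irradiated tumours, and Kit by 0.32 and 1.02. The melanocyte sums rest mostly on bright genes such as Dct, which averaged 33821, while Kit averaged 359. The 16 macrophage markers on the array summed to 12038 to 12494 and 17664 to 18312 in irradiated and untreated TNFR KO tumours, against 17372 to 17846 and 8714 to 8734 in irradiated and untreated WT tumours. The 8 neutrophil markers summed to 1275 to 1390 on TNFR KO arrays and 5402 to 28585 on WT arrays, and the 13 fibroblast markers to 13249 to 19400 on TNFR KO arrays and 6167 to 9635 on WT arrays. The neutrophil sums rest mostly on S100a8, S100a9 and Lcn2, the 3 of 6 tested that were 2-fold lower over both treatments. Csf3r, Mmp8 and Ngp differed by -0.71, -0.55 and -0.52. Of 11 fibroblast markers tested, 6 were at least 2-fold higher over both treatments, while Dcn (-0.32), Postn (-0.41) and Lum (-0.50) were lower. Of the keratinocyte markers, 4 of 5 tested were at least 2-fold higher in TNFR KO tumours, and the 10 on the array summed to 829 to 4220 on TNFR KO arrays and 453 to 772 on WT arrays. The part of these cell types in the members' values was not tested.

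Signals are MAS5 intensities, and differences are given as log2(signal + 16), TNFR KO minus WT or irradiated minus untreated, so folds understate the change of dim genes. All 159 members reached the level at which genes were tested. Over both treatments, 24 of the 159 members (15.1%) read at least 2-fold lower in TNFR KO tumours, beside 6.52% of the 11345 genes tested and 6.95% of the 9651 genes at the same signal level. No member was 2-fold higher, beside 0.82% and 0.56% of the same genes. The other 135 members ranged from -0.95 to 0.87, with a median of 0.050 and quartiles of -0.28 and 0.25. The median difference was -0.027 over the 159 members and 0.085 over all genes tested, with 81 members below 0, and the members ranged from -2.21 to 0.87. Because host chose the family, nothing is read from these shares.

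The host difference had the same sign under both treatments in 130 of the 159 members and in 8898 of the 11345 genes tested. Among irradiated tumours 23 members were at least 2-fold lower and 0 higher in TNFR KO hosts, beside 7.7% and 1.03% of all genes tested. Among untreated tumours 24 were lower and 1, Zfp469, was higher, beside 6.47% and 2.27%. In 17 members the 2-fold difference was present under both treatments, beside 4.49% of all genes. All 4 TNFR KO arrays lay below all 4 WT arrays for 48 members, and above them for 20, beside 21.8% and 22.5% of all genes, and the arrays overlapped for the remaining members. The host difference of irradiated tumours and that of untreated tumours, which share no pool, had a Pearson correlation of 0.86 (Spearman 0.80) across the 159 members and 0.73 (0.69) across all genes tested. Genes are not independent replicates, and each host's pools share its preparation.

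**Figure D1:**
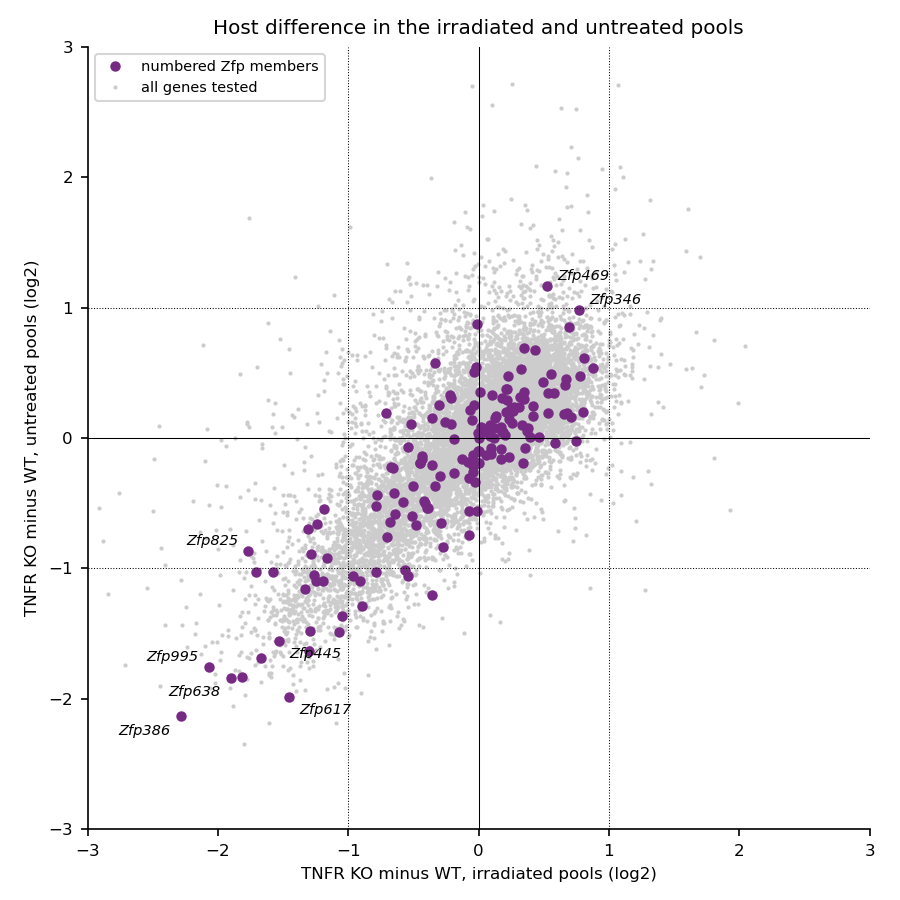
The log2 TNFR KO minus WT difference in irradiated pools (x axis) is plotted against that in untreated pools (y axis), with the 159 members in purple and the 11345 genes tested in grey. Dotted lines mark 2-fold, the 17 members in the lower left corner are 2-fold lower under both treatments, and 15 genes lie outside the axes.

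Zfp386 had the lowest host difference of the family. It read 132.5 and 174.0 in irradiated and 179.2 and 156.0 in untreated TNFR KO tumours, against 772.9 and 830.7 in irradiated and 741.2 and 834.6 in untreated WT tumours. Every TNFR KO array was below every WT array, and the difference of -2.21 was 4.62-fold, with -2.28 in irradiated and -2.13 in untreated tumours.

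The low members Zfp638, Zfp445 and Zfp809 are described first, for roles known from other work. Zfp638, which represses unintegrated retroviral DNA together with the HUSH complex, read 114.2 and 120.2 in irradiated and 176.0 and 140.1 in untreated TNFR KO tumours, against 527.8 and 437.0 in irradiated and 626.2 and 580.4 in untreated WT tumours, a 3.65-fold difference. Zfp445, a KRAB protein that helps maintain genomic imprints, read 386.1 and 380.6 in irradiated and 492.9 and 422.5 in untreated TNFR KO tumours, against 1027.8 and 1255.5 in irradiated and 1388.7 and 1363.9 in untreated WT tumours, a 2.92-fold difference. Neither gene's arrays overlapped between hosts. Zfp809, which recognises retroviral DNA in embryonic cells, read 207.7 and 310.3 in irradiated and 259.2 and 260.2 in untreated TNFR KO tumours, against 475.5 and 549.2 in irradiated and 524.2 and 596.6 in untreated WT tumours. At 2.02-fold its difference was the smallest of these, and its arrays did not overlap either. Zfp57, the imprint protein best known for this role, was no member, since its probe set averaged 29.2.

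The other 7 of the 10 members with the lowest host difference have roles that are left unstated here. Zfp995 read 91.6 and 60 in irradiated and 93.9 and 84.3 in untreated TNFR KO tumours, against 395.5 and 332.7 in irradiated and 374.6 and 307.3 in untreated WT tumours (3.77-fold). Zfp991 read 96.7 and 105.7 in irradiated and 82.3 and 74.4 in untreated TNFR KO tumours, against 487.7 and 321.0 in irradiated and 329.3 and 309.4 in untreated WT tumours (3.54-fold). The TNFR KO arrays of both genes lay between 60 and 105.7, near 68.8, the signal from which genes were tested. Zfp617 differed 3.30-fold, Zfp943 3.20-fold, Zfp770 2.77-fold, Zfp931 2.62-fold and Zfp52 2.58-fold, with every TNFR KO array below every WT array in each. Under other processing settings the log2 host difference ranged from -1.80 to -0.66 for Zfp943 and from -2.00 to -0.76 for Zfp991. The rest of the 10 stayed at least 2-fold lower in every setting that gave them a value.

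**Figure D2:**
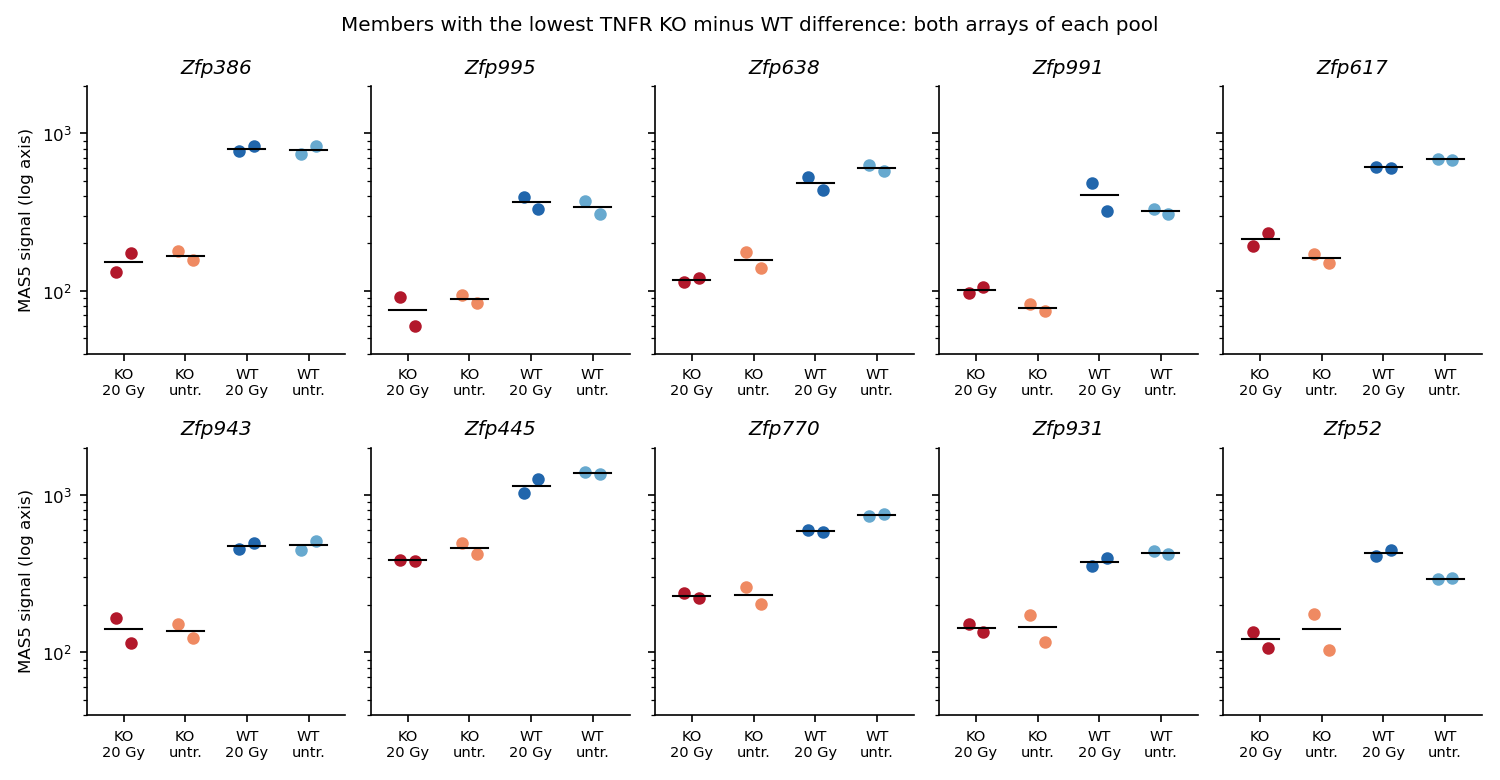
MAS5 signal (log axis) of the 10 members with the lowest host difference on both arrays of each of the 4 pools, with TNFR KO left of WT, points for arrays and bars for their mean. In each panel the 4 TNFR KO arrays lie below the 4 WT arrays, as in Zfp386 at 132.5 to 179.2 against 741.2 to 834.6.

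The remaining low members differed by 2.00-fold to 2.49-fold. They included Zfp24, a SCAN domain factor (2.43-fold), Zfp644, whose human counterpart works with the G9a and GLP histone methyltransferases (2.37-fold), Zfp131, a BTB domain factor (2.25-fold), and Zfp451, whose human counterpart is a SUMO ligase (2.23-fold). Of the 3 members nearest the signal level, Zfp748, with a mean of 150, and Zfp677, with a mean of 157, were just past the fold, at 2.004-fold and 2.008-fold lower, and Zfp82, with a mean of 152, differed by -0.44. Just outside the level, Zfp324 averaged 148, Zfp11 143 and Zfp12 143, with host differences of 0.52, -0.53 and 0.10. Zfp958, which averaged 95.1 and is therefore no member, read 48.3 and 30.3 in irradiated and 15.7 and 17.6 in untreated TNFR KO tumours, against 158.3 and 190 in irradiated and 139 and 161.2 in untreated WT tumours. With a mean of probe sets in place of the brightest, 15 members were 2-fold lower, and with levels of 100 and 300 the counts were 38 and 14.

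The 120 bases before the transcription start are shown for 7 of the 8 members with the lowest host difference, all but Zfp991, and for Zfp346, the member with the highest. They are the part before the start of the longer windows in which promoter motifs were searched, from RefSeq on GRCm38.p6, 5′ to 3′, at chr12:116047604-116047723 on the plus strand for Zfp386, chr17:21909927-21910046 on the minus strand for Zfp995, chr6:83914233-83914352 on the plus strand for Zfp638, chr8:71922705-71922824 on the plus strand for Zfp617, chr17:21962439-21962558 on the plus strand for Zfp943, chr9:122866007-122866126 on the minus strand for Zfp445, chr2:114201433-114201552 on the minus strand for Zfp770 and chr13:55105202-55105321 on the plus strand for Zfp346. Capitals mark a motif on either strand, GGGCGG (the GC box), CCAAT or CCGGAAG, an ETS-type motif. Zfp995 and Zfp770 hold none of the motifs in these 120 bases, and Zfp346 has 2 annotated starts, of which 1 is shown.
Zfp386: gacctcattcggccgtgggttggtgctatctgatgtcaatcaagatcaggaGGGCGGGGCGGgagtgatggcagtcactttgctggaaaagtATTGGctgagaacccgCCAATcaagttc
Zfp995: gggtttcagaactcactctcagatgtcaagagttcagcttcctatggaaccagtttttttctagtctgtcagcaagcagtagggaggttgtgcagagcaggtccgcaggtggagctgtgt
Zfp638: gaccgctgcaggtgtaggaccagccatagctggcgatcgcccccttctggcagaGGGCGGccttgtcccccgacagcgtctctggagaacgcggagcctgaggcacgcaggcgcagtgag
Zfp617: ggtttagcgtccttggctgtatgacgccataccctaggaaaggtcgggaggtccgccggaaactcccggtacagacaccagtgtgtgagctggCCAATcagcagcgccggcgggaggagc
Zfp943: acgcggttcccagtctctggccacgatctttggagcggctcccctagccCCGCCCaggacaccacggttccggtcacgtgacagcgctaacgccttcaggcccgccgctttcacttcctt
Zfp445: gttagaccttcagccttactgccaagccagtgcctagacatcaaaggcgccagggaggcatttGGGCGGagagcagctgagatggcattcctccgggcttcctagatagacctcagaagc
Zfp770: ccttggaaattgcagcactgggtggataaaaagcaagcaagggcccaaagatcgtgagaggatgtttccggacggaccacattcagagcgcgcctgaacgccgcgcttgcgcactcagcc
Zfp346: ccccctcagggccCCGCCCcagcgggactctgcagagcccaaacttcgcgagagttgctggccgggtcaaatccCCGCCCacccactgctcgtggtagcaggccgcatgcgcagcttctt

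Promoter windows of 300 bases were found for 127 of the 159 members, and both strands were searched. Among the low members, 28 windows of 22 genes had a median GC content of 54.0%, against 59.7% in 129 windows of 105 other members and 52.7% in all 32851 windows of the table. GGGCGG was present in 71.4% of the windows of low members, 53.5% of those of other members and 35.7% of all windows. CCAAT was present in 57.1%, 39.5% and 37.4% of them, CCGGAAG in 17.9%, 20.2% and 8.9%, ATGGCGG in 7.1%, 13.2% and 4.1%, and TATAAA in 3.6%, 10.1% and 13.6%. TGACGTCA, the cyclic AMP response element, was present in 3 of the 28 windows of low members (10.7%), 2 of the 129 of other members (1.6%) and 1.8% of all windows. Windows of one gene overlap, and a match is only an occurrence of these letters. Genes of the low members had a median length of 24563 bases, against 16779 bases in the other members.

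Other probe sets of the same genes gave a second reading of the low values, on the same arrays and pools. All members together had 99 further probe sets at the tested level, of which 8 differed by over 1 from the brightest in host difference. Of the 24 low members, 14 had a further probe set at the tested level, 27 in all, of which 24 were below 0 and 9 at least 2-fold lower, with a median of -0.86. Over all 61 members with a second probe set at that level, low ones included, its median was -0.043, beside -0.28 on their brightest. Zfp386 differed by -1.64 on its further probe set. Zfp451 was the least uniform, with further probe sets at -0.96, 0.086 and 0.42 beside its brightest at -1.16. The reverse was seen in 4 members that were 2-fold lower only on a dimmer probe set, namely Zfp148, Zfp281, Zfp292 and Zfp655. Zfp148, which binds GC-rich promoters, differed by -0.28 on its brightest probe set by -1.04 to -1.37 on 4 others and by -0.49 on the remaining one, and Zfp281, a regulator of pluripotent cells, by -0.87 on its brightest and -1.78 on a further one. Probe sets of one gene can read different transcript ends. Affymetrix gives the ending _x_at to probe sets whose probes can match other genes, and this ending was carried by 10 members, 2 of them low (Zfp931 and Zfp825), and how far their readings include related genes was not tested.

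**Figure D3:**
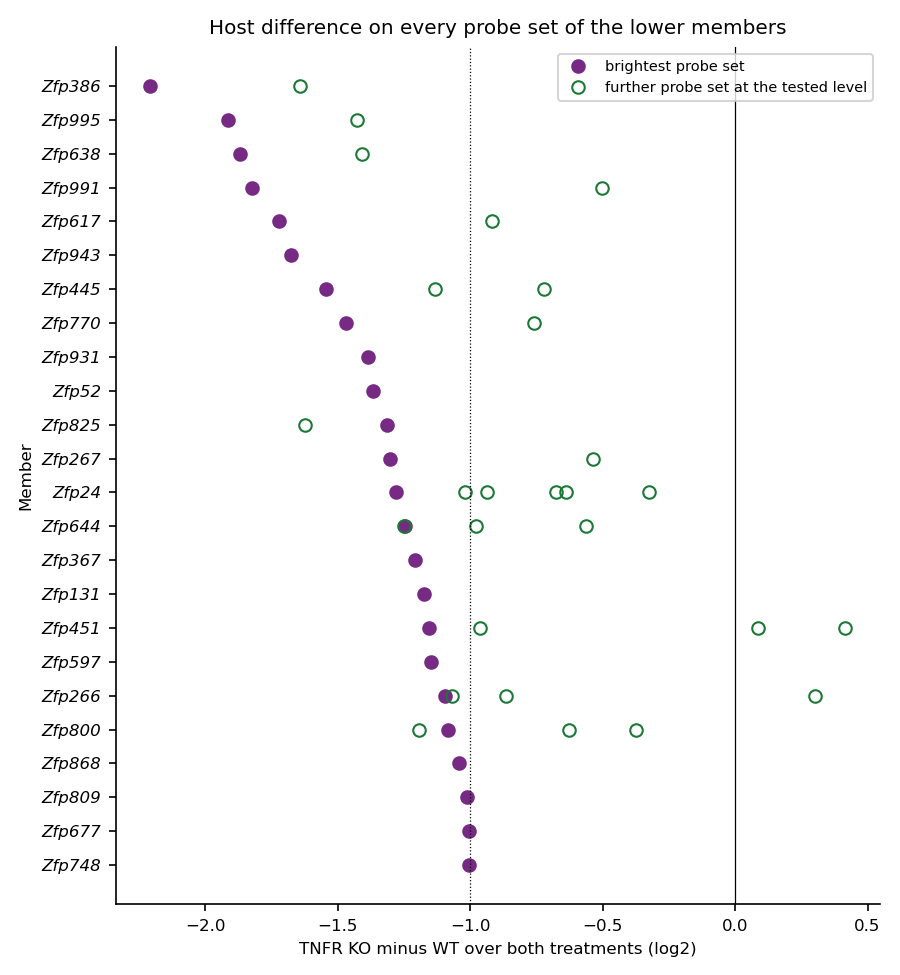
The log2 TNFR KO minus WT difference over both treatments (x axis) is shown for the brightest probe set (filled) and each further probe set at the tested level (open) of the 24 low members. Of the 27 open points 24 lie left of 0 and 9 left of the dotted 2-fold line.

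The share of members that were low differed between chromosomes. It was not set beside the share of all genes on each chromosome, and the unevenness was not tested. By RefSeq on GRCm38.p6, chromosome 13 held 8 members of which 4 were low, chromosome 17 held 15 with 4 low, chromosome 9 held 7 with 3 low, and chromosome 7, with the most members, held 37 with 0 low. Members no more than 5 protein-coding genes apart formed 25 groups with 70 members, which held 11 of the 24 low ones. On chromosome 17 the neighbours Zfp995, Zfp943 and Zfp994 differed by -1.91, -1.68 and -0.95, and the neighbours Zfp677 and Zfp52 by -1.01 and -1.37. On chromosome 6 a run of 7 members, Zfp398, Zfp282, Zfp212, Zfp956, Zfp777, Zfp746 and Zfp467, ranged from 0.29 to 0.77. Neighbouring zinc finger genes can be similar in sequence, and how far their probe sets cross-read was not tested.

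The highest host differences were smaller than the lowest. Zfp346, which binds double-stranded RNA, read 2537.0 and 2771.6 in irradiated and 2594.3 and 2368.4 in untreated TNFR KO tumours, against 1446.1 and 1662.2 in irradiated and 1071.3 and 1453.8 in untreated WT tumours, a difference of 0.87 with no overlap. Its further probe set differed by 0.27. Zfp469, whose human counterpart is altered in brittle cornea syndrome, read 554.2 and 577.1 in irradiated and 824.8 and 813.9 in untreated TNFR KO tumours, against 376.5 and 401.2 in irradiated and 322.4 and 393.5 in untreated WT tumours, a difference of 0.84. Zfp420 differed by 0.71 on its brightest probe set, which has the ending _x_at, and by -1.004 on a dimmer one below the tested level, so its direction is not settled. Zfp592 differed by 0.56, and by 0.39 and -0.092 on 2 further probe sets. Zfp777 (0.77), Zfp276 (0.71), Zfp740 (0.63), Zfp692 (0.56), Zfp598, a ubiquitin ligase acting on collided ribosomes (0.54), and Zfp319 (0.52) were the others of the 10 highest.

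What 20 Gy changed was tested over both hosts with limma on the 4 pool means, two-sided, with Benjamini-Hochberg adjustment over all 11345 genes tested. Of the 159 members 2 rose and 0 fell, beside 1.29% of all genes that rose and 0.264% that fell, and 15 members and 1886 of all genes had an unadjusted p under 0.05. The median radiation difference was -0.072 over the members and -0.018 over all genes. With arrays centred on their median, the median of all genes became -0.16 and that of the members -0.22. Of the members, 36 were higher after 20 Gy in both hosts, 61 lower in both and 62 of opposite sign. All 4 irradiated arrays lay above all 4 untreated arrays for 9 members and below them for 4, beside 7.27% and 5.14% of all genes.

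Zfp365, whose human counterpart ZNF365 is a target of p53 and helps preserve genome stability, rose. It read 385.6 and 450.1 in irradiated against 107.6 and 85.2 in untreated TNFR KO tumours, and 492.9 and 529.6 in irradiated against 179.1 and 141.8 in untreated WT tumours. The log2 difference was 1.77 (SE 0.17, limma adjusted p = 0.00071), with 1.95 in TNFR KO hosts and 1.59 in WT hosts, and no irradiated array overlapped an untreated one. A further, dimmer probe set averaged 159.8 in irradiated against 53.5 in untreated TNFR KO tumours and 133.7 in irradiated against 75.5 in untreated WT tumours, a difference of 1.02. The call was lost without WT irradiated replicate 1 (limma adjusted p = 0.0666), WT untreated replicate 1 (0.0739) or WT untreated replicate 2 (0.0788), while its difference stayed between 1.69 and 1.85 with any array left out.

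Zfp688, whose role is left unstated here, rose less. It read 825.2 and 908.8 in irradiated against 398.0 and 321.2 in untreated TNFR KO tumours, and 667.6 and 693.5 in irradiated against 404.7 and 418.4 in untreated WT tumours. The log2 difference was 0.97 (SE 0.18, limma adjusted p = 0.0278), with 1.24 in TNFR KO hosts and 0.70 in WT hosts. The call was lost whichever of the 8 arrays was left out, at limma adjusted p between 0.0642 and 0.239. Other measures moved with 20 Gy beside these genes. Of the skeletal muscle markers 6 of 9 tested fell, with a summed signal over 12 markers of 926 to 1012.5 in irradiated against 1957 to 2028 in untreated TNFR KO tumours, and 1509 to 1585 in irradiated against 4291 to 4416 in untreated WT tumours. Of the erythroid markers 2 of 3 tested rose, with a summed signal over 5 markers of 4500 to 5151 in irradiated against 590 to 682 in untreated TNFR KO tumours, and 1925 to 1973 in irradiated against 499 to 664 in untreated WT tumours. Of the keratinocyte markers 1 of 5 tested fell, with a summed signal over 10 markers of 829 to 948 in irradiated against 4019 to 4220 in untreated TNFR KO tumours, and 670 to 772 in irradiated against 453 to 481 in untreated WT tumours. The 18S signal averaged 944 in irradiated against 529 in untreated TNFR KO tumours, and 340 in irradiated against 293 in untreated WT tumours. Poly-A spike-ins were also higher on irradiated than on untreated WT arrays, dap at 22265 against 13363 and lys at 4595 against 2283. For phe the WT means were 6514 irradiated and 3015 untreated, and for thr 8380 and 4078. In TNFR KO pools the means of these spike-ins lay between 11.5 and 22, each higher after 20 Gy. The bioB control went from 558 in untreated to 696 in irradiated WT tumours, and from 553 to 621 in TNFR KO tumours. The part of these measures in the rise of Zfp365 and Zfp688 was not tested.

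The 120 bases before the start of both genes that rose are at chr10:67912663-67912782 on the minus strand for Zfp365 and chr7:127422035-127422154 on the minus strand for Zfp688 (RefSeq, GRCm38.p6), with the same capitals.
Zfp365: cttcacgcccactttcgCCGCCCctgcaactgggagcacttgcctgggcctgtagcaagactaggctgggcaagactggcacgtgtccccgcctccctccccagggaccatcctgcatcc
Zfp688: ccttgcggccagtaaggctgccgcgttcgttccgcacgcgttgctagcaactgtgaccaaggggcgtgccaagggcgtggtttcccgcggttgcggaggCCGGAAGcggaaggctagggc

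Within single hosts, where 1 pool stands against 1 and no test was made, 2 members were at least 2-fold higher after 20 Gy in TNFR KO hosts and 0 lower, beside 1.1% and 0.626% of all genes. In WT hosts 1 was higher and 0 lower, beside 2.6% and 0.273%. The next members in size did not pass, with Zfp777 at 0.63 (limma adjusted p = 0.0888), Zfp703, a cofactor known as a breast cancer oncogene in humans, at 0.59 (0.106) and Zfp219 at 0.52 (0.144). The lowest were Zfp275 at -0.45, Zfp467 at -0.45, Zfp326, an RNA splicing factor, at -0.44, Zfp91, a ubiquitin ligase, at -0.42 and Zfp869 at -0.40, none of which passed. The 24 low members had a median radiation difference of -0.15, and 0 of them passed.

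**Figure D4:**
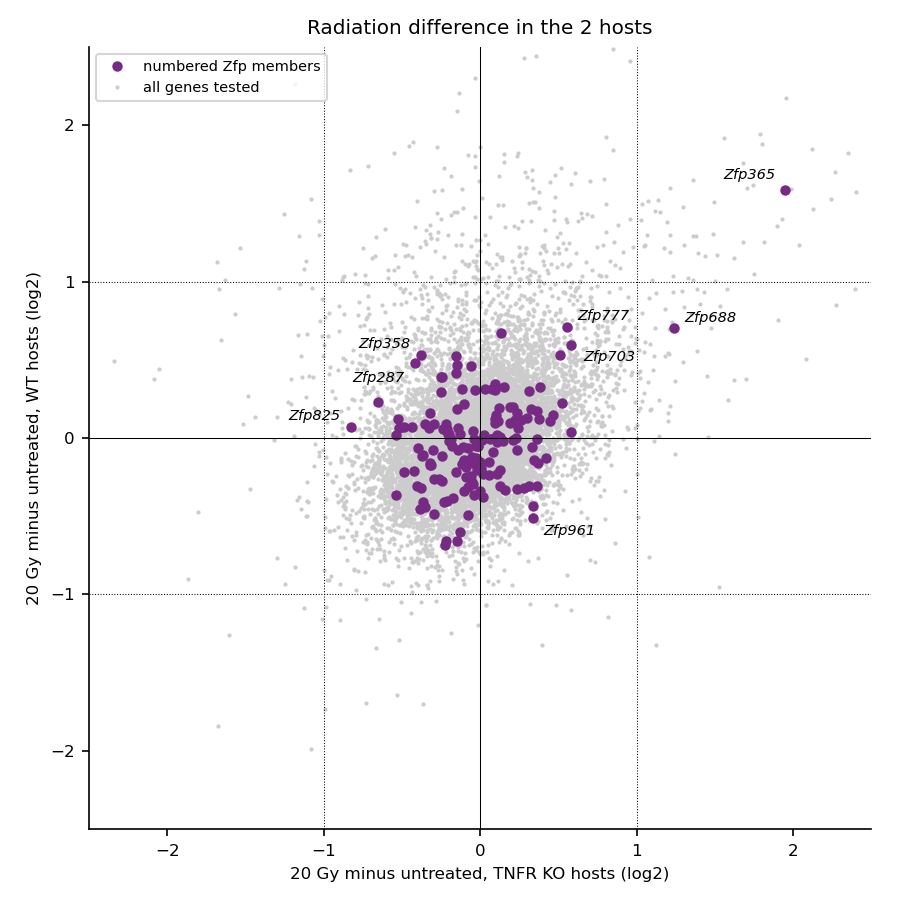
The log2 difference of irradiated minus untreated tumours in TNFR KO hosts (x axis) and WT hosts (y axis), with members in purple and the 11345 genes tested in grey. Zfp365, at 1.95 and 1.59, stands apart from the other members, and 14 genes lie outside the axes.

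Genes that work with KRAB proteins and related zinc finger families were set beside the members. Of 39 listed KRAB repressor partners, 33 were on the array and tested, and 0 rose and 0 fell after 20 Gy (limma, with 5 at an unadjusted p under 0.05 and a median of -0.11). Trim28 differed by 0.43 between hosts and by 0.089 after 20 Gy, and Setdb1 by 0.14 and -0.39. Trim24 (-1.13) and Hdac2, a histone deacetylase (-1.08), were the partners at least 2-fold lower in TNFR KO tumours. They were 6.06% of the 33, near the 6.52% of all genes tested, and the median of the list was 0.061. Of 40 Zbtb, Zscan and Zkscan genes at the same signal level as the members, 2 (5%) were 2-fold lower in TNFR KO tumours, beside 6.95% of all genes there. Their median was -0.045, and 0 rose or fell after 20 Gy (limma), with 5 at an unadjusted p under 0.05. Whether the host differences of these families and of the members differ was not tested.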

How the data were processed

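Whole-tumour RNA of 4 pools was measured on 8 arrays. The deposited values are MAS5 signal intensities with no log taken. MAS5 comes from the submitters' processing notes, which give no version. On every array the mean was 500 after trimming 2% at each end, as after scaling to one target. Groups came from the sample titles. Of 45101 probe sets, 34945 name 1 gene, 932 several, 9160 none, and 64 are controls. Each gene was represented by its brightest single-gene probe set, and the 11345 genes with a mean log2(signal + 16) of at least 6.41 were tested. All 159 members were found by gene ID in the RefSeq table (GRCm38.p6).

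Radiation was tested with limma 3.58.1 in R 4.3.3 on pool means with host as covariate, which leaves 1 residual degree of freedom (prior 8.97). That residual is the difference between the hosts' radiation effects, and p-values hold no spread between replicate pools. The script was tested on simulated data. Figures used matplotlib 3.10.9. Named members were, by rule, the 10 lowest and 10 highest host differences, those called after 20 Gy and the next by size, those nearest the signal level, those with the most unlike radiation effects in the hosts, and members of known role. Zfp24, Zfp131, Zfp292, Zfp644, Zfp655 and some neighbours were named after their values were seen. Members and lists were chosen with earlier results of these data known. A split by KRAB domain or finger number, which needs protein sequences, was not analysed here. Same-numbered arrays did not deviate together (correlations of -0.03 to 0.05), so the numbers do not pair samples. Alternatives were other normalizations, pseudocounts, filters, levels, fold sizes, probe set rules, fits, and leaving out each array.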

Additional observations from a re-analysis of the deposited data

Results flagged for a closer look

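In 7 members both irradiated arrays of one host lay on one side of its untreated arrays and those of the other host on the opposite side. No share over all genes tested is given beside this count, so nothing is read from it. The difference between the radiation effects, TNFR KO minus WT, was not tested, since each group is 1 pool. Zfp961 had the largest positive difference at 0.85, with a radiation effect of 0.34 in TNFR KO hosts and -0.51 in WT hosts. Zfp637 followed at 0.62, with 0.31 in TNFR KO and -0.31 in WT hosts, then Zfp617 at 0.53, with 0.37 in TNFR KO and -0.16 in WT hosts, and Zfp740 at 0.30, with 0.06 in TNFR KO and -0.24 in WT hosts. In the other direction, Zfp358 differed by -0.91, with -0.38 in TNFR KO and 0.53 in WT hosts, Zfp287 by -0.90, with -0.42 in TNFR KO and 0.48 in WT hosts, and Zfp281 by -0.64, with -0.25 in TNFR KO and 0.39 in WT hosts. A further probe set at the tested level did not show opposite directions in Zfp287 or Zfp281. Its radiation effects in TNFR KO and WT hosts were 0.16 and 0.47 for Zfp287, and 0.20 and 0.45 for Zfp281. For Zfp358 a dimmer probe set below the tested level gave -0.46 and 0.50. The radiation difference of Zfp961 over both hosts was 0.40 with the mean of all probe sets, against -0.085 on its brightest. For Zfp617 it was -0.059 with that mean, against 0.10 on its brightest.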

How the results depend on the processing

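The count of members that rose after 20 Gy, 2 as reported, was 0 with quantile normalization or no filter, 1 with no pseudocount or a level of 300, 4 with a pseudocount of 64, a filter at the 75th percentile or the mean of all probe sets, 5 with limma-trend, and 0 to 1 with 1 array left out. It was 6 on the 8 arrays without the replicate block and 6 with the replicate block, where 10 and 8 members fell, against 0 as reported; these fits treat technical duplicates as replicates. Over all genes the counts of 146 higher and 30 lower became 2 and 0 with quantile normalization, 0 and 0 with no filter, 464 and 323 with limma-trend, 758 and 1020 with the replicate block, and 0 to 100 and 0 to 17 with 1 array left out. The count of members 2-fold lower in TNFR KO tumours, 24, was 5 with the filter at the 75th percentile, which leaves out dim members, 15 with the mean of all probe sets, 38 at a level of 100 and 14 at a level of 300. The count 2-fold higher, 0, was 6 at 1.5-fold and 0 to 1 with 1 array left out. The members' median host difference of -0.027 became 0.071 with quantile normalization, 0.077 with the filter at the 75th percentile, 0.050 at a level of 300, -0.11 at a level of 100 and -0.11 with centred arrays, so its sign is not settled. Their median radiation difference of -0.072 became -0.021 with quantile normalization, -0.22 with centred arrays, -0.053 with a pseudocount of 64, -0.033 with the mean of all probe sets, and -0.068 to -0.033 with 1 array left out. The causes were not tested except where stated. Among named members, 8 of 819 host values changed sign, in 7 members. With the mean of all probe sets these were Zfp420 (-0.15, against 0.71 as reported), Zfp91 (0.12, against -0.45), Zfp207 (0.025, against -0.32) and Zfp358 (-0.052, against 0.12), and the others were Zfp688, Zfp703 and Zfp219, each under 0.1 in size. Of 819 radiation values 44 changed sign, in 18 members, none of which passed the test in either. Of the 24 low members, 10 were at least 2-fold lower in every setting that gave them a value, and 2 of these had a value in all 18 settings.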
